A study of Mus musculus with 8 samples.

Results

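The subunits and assembly factors of mitochondrial complex I were followed by RNA-seq in B16F10, a mouse melanoma cell line. The members were the rows whose symbol has the form Nduf, letters, a number and an optional ending without a hyphen, leaving out Ndufa4 and Ndufa4l2, and 49 of the 55414 genes in the table met it. Of these, 41 were subunit rows and 8 were the assembly factors Ndufaf1 to Ndufaf8. Levels are given as TPM, an estimate of transcript abundance per length that adds up to the same total in each library.

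The 8 libraries formed 4 groups of 2. WT cells and CypD KO cells, which carry a CRISPR/Cas9 knockout of Ppif and came from puromycin-selected clones, were kept at 21% O2 for 24 h. Control cells stably carried pcDNA without an insert, CypD OE cells stably carried pcDNA with CypD, and both were selected with G418 and kept at 1% O2 for 24 h. CypD (cyclophilin D, encoded by Ppif) acts on the permeability transition pore of mitochondria, and the comparisons ask how its loss or added expression bears on the transcriptome. The CypD KO, Control and CypD OE cells are drug-selected lines, so a change of genotype and a difference between lines cannot be told apart. Nothing in the labels says whether the libraries of a group came from separate cultures, so p-values measure only the spread between these libraries.

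Complex I (NADH:ubiquinone oxidoreductase) is the entry point of NADH electrons into the respiratory chain and couples their passage to ubiquinone with proton pumping across the inner membrane. Its matrix arm holds the NADH-oxidizing N module and the ubiquinone-binding Q module, its membrane arm pumps protons, and both arms are covered by accessory subunits. Core subunits of the matrix arm are nuclear-encoded, those of the membrane arm are encoded by mitochondrial DNA, and assembly factors build or modify the enzyme without being part of it.

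Because Control and CypD OE cells were kept at low oxygen, the promoters of the members were searched for ACGTG, the core of the element bound by hypoxia-inducible factors, on both strands. RefSeq sequences of build GRCm38.p6, from 250 bases before to 50 after the gene start, were matched for 40 of the 49 members. ACGTG occurred in 8 of these 40 (20.0%) and in 21.8% of the promoters of all 27025 genes, so its share in the members was near that of all genes. The 8 were Ndufa1, Ndufa3, Ndufa7, Ndufaf3, Ndufb1, Ndufb10, Ndufv1 and Ndufv3. One match each is shown for the 4 of them that are described below among the largest changes, with ACGTG in capitals.
Ndufv3, chr17:31520116-31520140, plus strand: cgattggtgaACGTGgacgcggggc
Ndufa7, chr17:33824491-33824515, plus strand: gagaggagtcACGTGagcaggggat
Ndufb1, chr12:101975843-101975867, minus strand: cttattcaaaACGTGtcgcgatcat
Ndufa1, chrX:37191426-37191450, minus strand: ttgaagaggaACGTGcacacctgac
The variant core GCGTG occurred in 21 of the 40 (52.5%) and in 35.2% of all genes. Another motif, GCGCA followed by any base and GCGC, resembles the site of NRF1, a factor known for driving nuclear genes of the respiratory chain. It occurred in 9 of the 40 members (22.5%) and in 5.2% of all genes. Its match in the promoter of the assembly factor Ndufaf4 is shown with the motif in capitals.
Ndufaf4, chr4:24897960-24897989, plus strand: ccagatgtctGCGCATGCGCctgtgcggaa
A match gives only the presence of these letters, and no binding was measured.

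Of the 49 members, 46 were at 1 TPM or more in every library. Ndufa11b and Ndufb11b, letter-suffix copies of subunit genes, were listed at 0 in all 8 libraries. Ndufs6b lay between 0 and 2.4 TPM and passed the filter used for testing (1 TPM in at least 2 libraries) only through single libraries of the Control and CypD KO groups. Ndufb4c shared 100% of its 360 31-base words with Ndufb4, so the levels of both are uncertain. Thus 47 members were tested.

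The most abundant members by mean TPM over the 8 libraries were Ndufa5 (404 TPM), an accessory subunit of the Q module, Ndufa12 (339 TPM), of the matrix arm, and Ndufab1 (332 TPM), the mitochondrial acyl carrier protein. Leaving out the letter-suffix copies, the subunit with the lowest mean was Ndufs7 (45.7 TPM), an iron-sulfur subunit next to the ubiquinone site. The 8 assembly factors were lower, with means between 7.89 TPM for Ndufaf3 and 78.5 TPM for Ndufaf2 and a median of 25.1 TPM, against 134.5 TPM for the 41 subunit rows. Ndufv3 varied most over the libraries (highest over lowest, 2.49-fold), followed by Ndufa7 (2.15-fold), Ndufaf3 (2.10-fold) and Ndufb1 (2.06-fold). Ndufs7 varied least (1.11-fold).

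**Figure D1:**
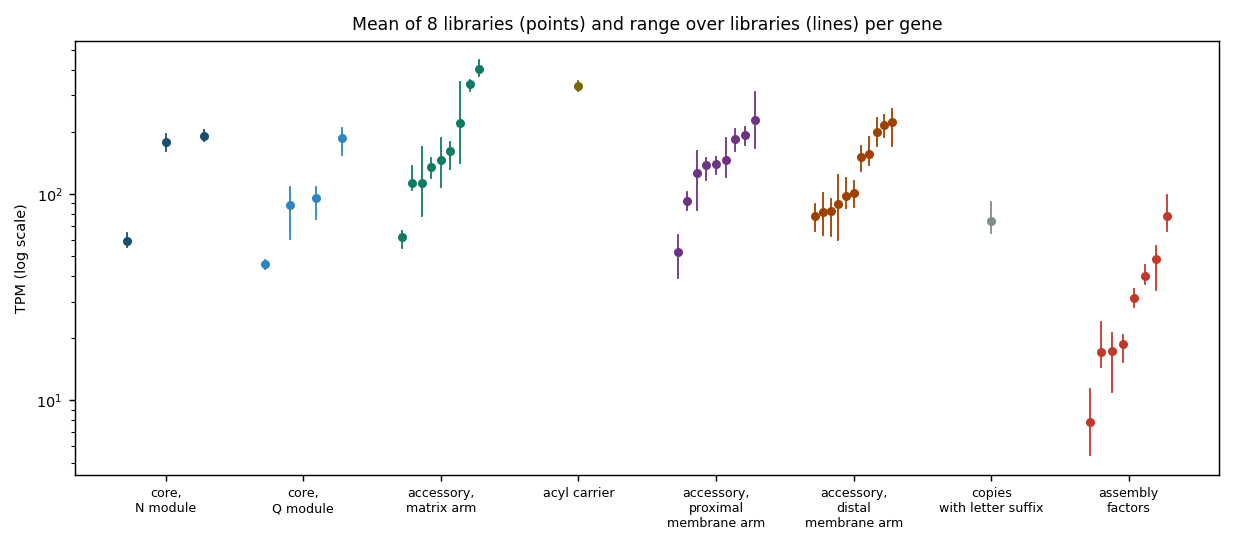
Level of the 46 members that reached 1 TPM in every library, by class, on a logarithmic TPM axis, with a point for the mean of the 8 libraries of each gene and a line for the range over them. Assembly factors lie below most subunits, from a mean of 7.89 TPM (Ndufaf3) to 78.5 TPM (Ndufaf2).

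The libraries as a whole were checked first. Ppif gave 50.7 and 49.99 TPM for WT against 10.4 and 12.1 TPM for CypD KO, a log2 difference of -2.07 (SE 0.073, adjusted p = 3.81e-06). It gave 44.6 and 42.3 TPM for Control against 50.3 and 49.3 TPM for the CypD OE label, a difference of 0.19 (SE 0.073) that did not pass the threshold (adjusted p = 0.0794), so directions for CypD OE rest on the label. All 7 melanocyte markers reached 1 TPM in every library, and their sum was 15755 and 15665 TPM in WT, 12587 and 12433 TPM in CypD KO, 20446 and 20984 TPM in Control and 13758 and 13586 TPM in CypD OE. In CypD KO against WT, Tyr was higher (1.97, adjusted p = 4.02e-06), Mitf was not called, and Dct, Mlana, Pmel, Sox10 and Tyrp1 were lower. In CypD OE against Control, Sox10 was higher (0.20, adjusted p = 0.00241), Mlana and Tyr were not called, and Dct, Mitf, Pmel and Tyrp1 were lower. The sum of 5 fibroblast markers was 34.0 to 36.9 TPM in CypD KO and 9.21 to 21.0 TPM elsewhere. Of these markers Postn was higher in CypD KO than WT (1.91, adjusted p = 9.47e-06), Col1a2 was lower (-1.79, adjusted p = 0.00176) and Dcn was at 0 in all libraries. The sum of 4 leukocyte markers was 23.7 to 25.1 TPM in CypD KO and 1.13 to 4.90 TPM elsewhere, nearly all of it Cd68, while Cd3e was at 0 everywhere and Ptprc at 0.02 TPM or less. The 2 endothelial markers summed to 0.03 to 1.18 TPM. The part of these differences in the results below was not tested.

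Tests used limma on log2(TPM + 1), with 4 group means and p-values adjusted over all 13526 genes tested, and a member was called at an adjusted p under 0.05. Fold changes are on this scale, which understates changes of low genes. Single-gene exact permutation tests were not informative, since 2 against 2 libraries cannot give a two-sided p under 0.333. Exons of 29 of the 49 members overlap a gene on the opposite strand. The strand setting of the counting is not stated, so reads of such pairs may not have been told apart. The 29 include Ndufv3 (with Gm38099) and Ndufs1 (with Eef1b2 and Ino80dos). Exons of 7 members overlap a gene on the same strand, which a strand setting does not separate. Among them are Ndufc1 (with the processed pseudogene Gm9442), Ndufb9 (with Gm49356) and Ndufa13 (with Yjefn3).

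CypD KO cells had higher RNA levels of many accessory subunits than WT cells, while the core subunits and assembly factors showed few rises. Of the 47 members tested, 19 were higher (40.4%) and 6 lower (12.8%), beside 30.1% higher and 18.4% lower of all genes tested. Their median log2 difference was 0.17, against 0.089 for all genes, but it was 0.079 against 0.094 without WT replicate 2. The median standard error, here and in the 2 comparisons below, was 0.06 for the members and 0.10 for all genes. It was 0.057 for the subunits and 0.0996 for the Ndufaf factors. A change of given size was thus called more readily in the subunits than in the Ndufaf factors or in all genes. Changes were mostly small. Of the 47 members, 7 were called with a change over 1.5-fold, beside 2759 of the 13526 genes tested. The split moved with the scaling. After rescaling the libraries by the median of ratios, which moved the median of all genes to -0.0091, 14 members were higher and 14 lower, beside 23.6% higher and 25.8% lower of all genes. Both CypD KO libraries were above both WT libraries in 27 of the 47 members and below them in 15, beside 44.4% and 29.6% of all genes tested.

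The core subunits of the matrix arm together hold the flavin, the iron-sulfur clusters and the ubiquinone site. Of the 7, 1 was higher (14.3%) and 2 were lower (28.6%) in CypD KO, beside 30.1% and 18.4% of all genes tested. Ndufs1, the largest iron-sulfur subunit of the N module, measured 194 and 195 TPM in WT against 163 and 161 TPM in CypD KO, a log2 difference of -0.26 (SE 0.037, adjusted p = 0.00124). Ndufs8, which holds iron-sulfur clusters of the Q module, measured 105 and 95.8 TPM in WT against 79.8 and 75.3 TPM in CypD KO, a difference of -0.37 (SE 0.079, adjusted p = 0.00814). For both genes the CypD KO libraries lay below both WT libraries. Ndufs8 lost its call without WT replicate 1 (-0.30, adjusted p = 0.0502) and without CypD KO replicate 2 (-0.33, adjusted p = 0.0526), and Ndufs1 kept it in all settings tried. Ndufs3, a core Q module subunit, was the member of this class that rose, from 91.9 and 87.9 TPM to 108 and 102 TPM (0.22, SE 0.058, adjusted p = 0.0190), but not after median-of-ratios rescaling, without CypD KO replicate 1 (adjusted p = 0.104) or without WT replicate 2 (adjusted p = 0.0948). The flavoprotein subunit Ndufv1 measured 61.3 and 56.7 TPM in WT against 60.2 and 64.5 TPM in CypD KO, which overlap. Ndufv2 measured 203 and 202 TPM in WT against 185 and 196 TPM in CypD KO, and Ndufs7 at 45.7 and 44.8 against 44.0 and 43.3 TPM. Ndufv2 and Ndufs7 did not pass the test, although each CypD KO library lay below the WT libraries. After median-of-ratios rescaling both were called lower (adjusted p = 0.0118 for Ndufv2 and 0.0262 for Ndufs7).

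Of the 30 accessory subunits, 18 were higher (60%) and 2 lower (6.67%), beside 30.1% and 18.4% of all genes tested. Their median was 0.23. The 18 higher ones were 6 of 9 in the matrix arm, 6 of 9 in the proximal membrane arm and 6 of 11 in the distal membrane arm. After median-of-ratios rescaling, Ndufs4, Ndufb9, Ndufb10 and Ndufa3 were no longer called higher, and Ndufa12, Ndufb8 and Ndufa8 were called lower. Ndufv3, an accessory subunit of the N module on chr17:31739052-31751735 (GRCm39), showed the largest rise, from 141 and 145 TPM in WT to 257 and 265 TPM in CypD KO (0.87, SE 0.045, adjusted p = 1.62e-05). Ndufa1, of the membrane arm, measured 100 and 83.3 TPM in WT against 162 and 155 TPM in CypD KO (0.79, SE 0.094, adjusted p = 0.000571). Ndufa7, of the matrix arm, measured 101 and 99.4 TPM in WT against 169 and 157 TPM in CypD KO (0.70, SE 0.048, adjusted p = 5.13e-05). In all 3 the CypD KO libraries stood well above both WT libraries.

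Ndufa13, a membrane arm subunit also called GRIM-19, measured 40.7 and 39.3 TPM in WT against 59.9 and 63.2 TPM in CypD KO (0.61, SE 0.072, adjusted p = 0.000559). Its exons overlap those of Tssk6 on the other strand. Ndufc1, of the membrane arm, measured 198 and 210 TPM in WT against 302 and 312 TPM in CypD KO (0.59, SE 0.043, adjusted p = 7.07e-05). Again the groups did not overlap, and these 5 genes kept their call in all settings tried. Against this direction, Ndufa10 of the membrane arm measured 187 and 162 TPM in WT against 128 and 149 TPM in CypD KO (-0.34, SE 0.093, adjusted p = 0.0225). Its call was lost without CypD KO replicate 1 (-0.23, adjusted p = 0.119) and without WT replicate 1 (-0.24, adjusted p = 0.116). Ndufab1 was slightly lower, at 348 and 350 TPM in WT and 331 and 321 TPM in CypD KO (-0.10, SE 0.027, adjusted p = 0.0241).

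None of the 8 Ndufaf assembly factors was called higher in CypD KO, and 2 were lower (25%), with a class median of -0.077. Of all genes tested, 30.1% were higher and 18.4% lower. Ndufaf6, which acts in Q module assembly, measured 21.2 and 20.8 TPM in WT against 10.9 and 13.5 TPM in CypD KO (-0.74, SE 0.10, adjusted p = 0.00119). Ndufaf7, an arginine methyltransferase of complex I assembly, measured 44.0 and 45.3 TPM in WT against 40.2 and 36.6 TPM in CypD KO (-0.21, SE 0.071, adjusted p = 0.0434). The groups did not overlap in either gene, and Ndufaf6 kept its call in all settings tried while Ndufaf7 lost it in 6 of 12, with an adjusted p of 0.0958 to 0.203 without CypD KO replicate 2, WT replicate 1 or WT replicate 2. Ndufaf3, another Q module factor and the lowest of the class, was at 5.45 and 6.94 TPM in WT and 11.0 and 7.37 TPM in CypD KO (adjusted p = 0.163). Ndufaf5, the arginine hydroxylase of NDUFS7, was at 17.1 and 17.8 TPM in WT and 24.1 and 17.1 TPM in CypD KO (adjusted p = 0.280). Its partner Ndufaf8 was at 20.8 and 20.3 TPM in WT and 15.3 and 17.95 TPM in CypD KO (adjusted p = 0.0547). None of these 3 passed the test. Ndufaf1 (30.9 and 32.0 TPM in WT, 32.8 and 31.4 TPM in CypD KO), Ndufaf2 (74.7 and 75.0 TPM, 79.2 and 70.2 TPM) and Ndufaf4 (54.4 and 54.2 TPM, 48.9 and 48.9 TPM) did not pass it either. After median-of-ratios rescaling, Ndufaf4 (-0.26, adjusted p = 0.0180) and Ndufaf8 (-0.40, adjusted p = 0.0168) were also called lower, and Ndufaf8 was called in 5 of 12 alternatives.

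**Figure D2:**
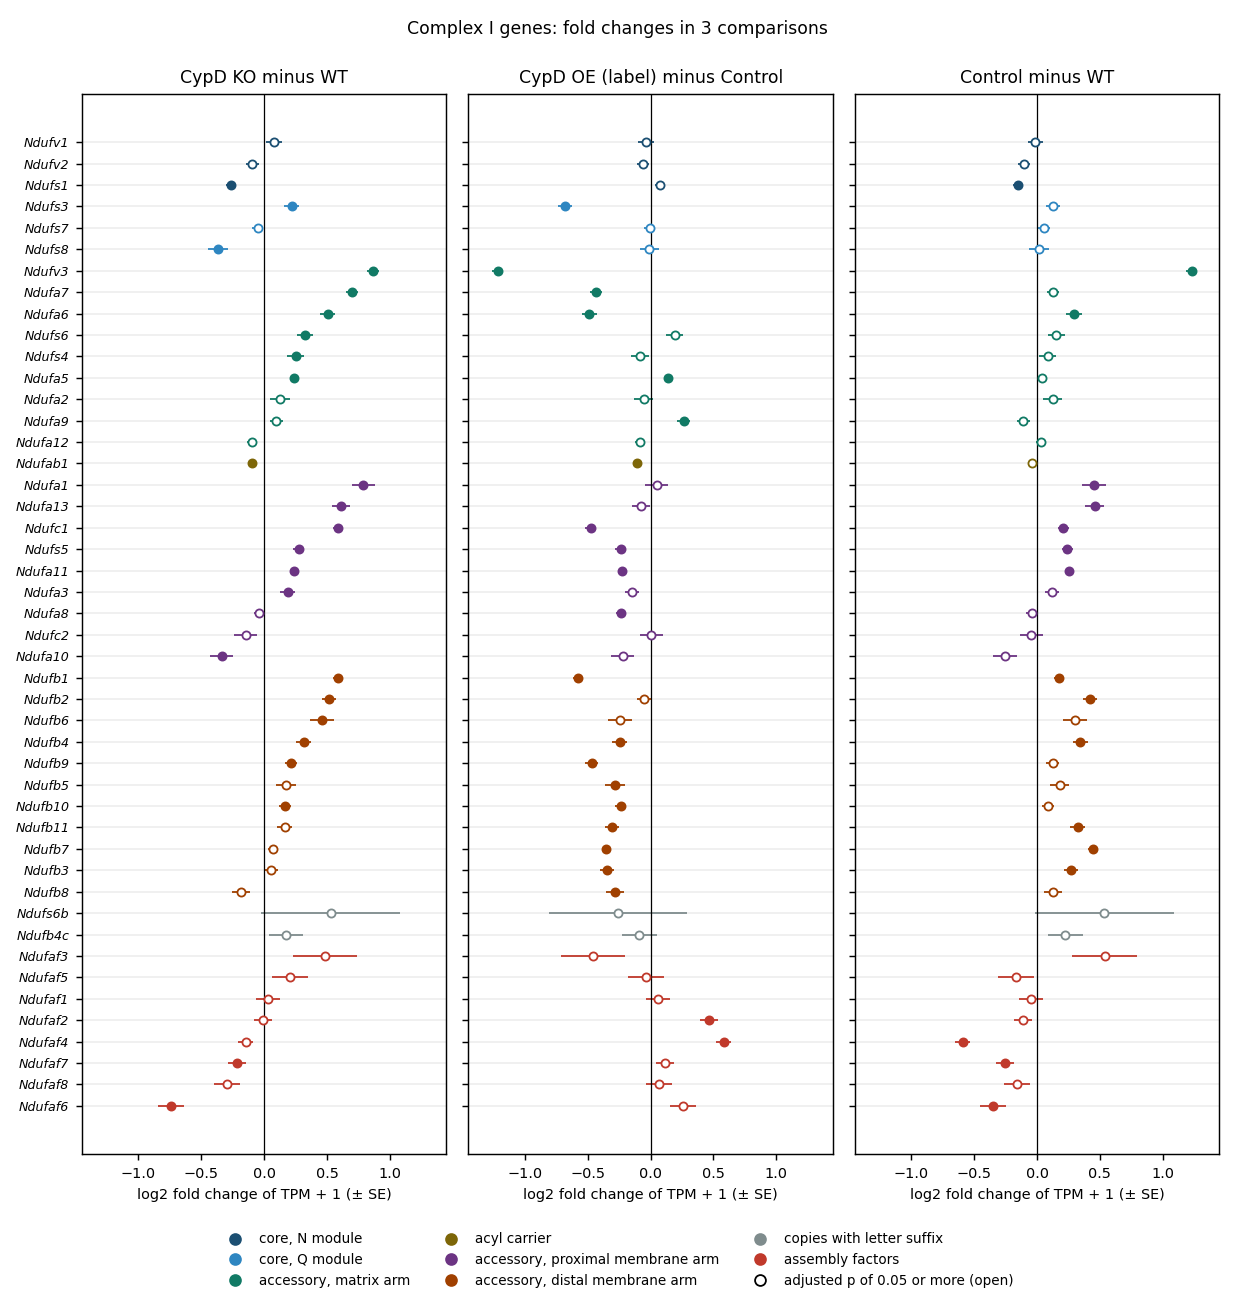
Log2 fold change of the tested members described here on the log2(TPM + 1) scale in the 3 comparisons, grouped by class, with bars of 1 standard error from limma and filled points for an adjusted p under 0.05. In CypD KO against WT the calls in the accessory classes lie mostly to the right, and the 2 called of 8 assembly factors lie to the left. In CypD OE against Control, the distal membrane arm lies to the left of 0 for all 11 genes.

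At 1% O2, the libraries labelled CypD OE had lower RNA levels of many subunits than Control. Of the 47 members, 19 were lower (40.4%) and 4 higher (8.51%), beside 18.3% lower and 19% higher of all genes tested. The median log2 difference was -0.11, against 0.0021 for all genes, and -0.17 without CypD OE replicate 2. Both CypD OE libraries were below both Control libraries in 24 of the 47 members and above them in 8, beside 33.9% and 34.8% of all genes tested. Transcripts of mitochondrial DNA made up 13.0 to 13.7% of TPM in CypD OE and 9.502 to 10.02% in Control, which lowers the share left for nuclear genes. An alternative chosen after seeing the data set the libraries to an equal total of nuclear protein-coding genes. It gave 15 members lower and 7 higher, beside 14.5% and 25.9% of all genes. The median was then 0.076 for all genes and -0.027 for the members.

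None of the core subunits was higher, beside 19.0% of all genes tested. Ndufs3, which was lower, measured 93.3 and 103 TPM in Control against 60.6 and 61.1 TPM in CypD OE (-0.68, SE 0.058, adjusted p = 0.000234). Ndufs3 lies on chr2:90724969-90735284 (GRCm39), where its exons overlap those of Kbtbd4 on the other strand. Both CypD OE libraries lay below both Control libraries. Ndufs8 was at 97.3 and 106 TPM in Control and 94.3 and 107 TPM in CypD OE, and Ndufs7 at 46.8 and 47.3 against 45.6 and 47.9 TPM. Ndufv1 was at 57.4 and 59.2 TPM in Control and 58.7 and 55.1 TPM in CypD OE, and Ndufv2 at 180 and 198 against 182 and 179 TPM. These 4 overlapped. Ndufs1 was at 169 and 180 TPM in Control and 183 and 184 TPM in CypD OE, above but not called.

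Of the 30 accessory subunits, 17 were lower (56.7%) and 2 higher (6.67%), beside 18.3% and 19.0% of all genes tested. Their median was -0.24. Ndufv3 again changed most, from 322 and 349 TPM in Control to 142 and 145 TPM in CypD OE (-1.22, SE 0.045, adjusted p = 6.26e-06). Ndufb1, of the distal membrane arm, measured 91.9 and 91.4 TPM in Control against 62.1 and 59.8 TPM in CypD OE (-0.58, SE 0.036, adjusted p = 6e-05). Ndufa6, a LYR-motif subunit, measured 156 and 161 TPM in Control against 117.3 and 108 TPM in CypD OE (-0.49, SE 0.061, adjusted p = 0.00120). The groups stood apart in all 3 genes. Ndufb1 shares exonic bases with Cpsf2 and Ndufa6 with Smdt1, each on the other strand. Ndufc1 measured 231 and 241 TPM in Control against 172 and 166 TPM in CypD OE (-0.48, SE 0.043, adjusted p = 0.000287).

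The distal membrane arm, Ndufb1 to Ndufb11, had 9 of 11 genes lower (81.8%) and none higher, beside 18.3% and 19.0% of all genes tested. In 10 of 11 both CypD OE libraries were below both Control libraries, beside 33.9% of all genes tested. With the equal nuclear protein-coding total, Ndufb4, Ndufb5 and Ndufb8 lost their call and 6 of 11 were lower, beside 14.5% of all genes. Besides Ndufb1, Ndufb9 was at 233 and 246 TPM in Control and 170 and 175 TPM in CypD OE (-0.47, SE 0.050, adjusted p = 0.000576). Ndufb7, on the intermembrane-space side, was at 120 and 118 TPM in Control and 91.0 and 94.5 TPM in CypD OE (-0.35, SE 0.038, adjusted p = 0.000569). These values did not overlap. Ndufb2 (89.9 and 85.3 TPM in Control, 87.4 and 81.4 TPM in CypD OE) and Ndufb6 (85.6 and 87.3 TPM, 70.1 and 75.4 TPM) were not called. The accessory Q module subunits Ndufa9 and Ndufa5 went the other way. Ndufa9 was at 124 and 119 TPM in Control and 149 and 142 TPM in CypD OE (0.26, SE 0.052, adjusted p = 0.00808), and Ndufa5 at 391.5 and 374 against 426 and 415 TPM (0.13, SE 0.030, adjusted p = 0.0133). Both lost their call without CypD OE replicate 1 (adjusted p = 0.0515 and 0.0750), and Ndufa5 also without Control replicate 2 (adjusted p = 0.0623).

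Of the 8 Ndufaf factors, 2 were higher in CypD OE (25%) and none lower, with a class median of 0.089. Among all genes tested, 19.0% were higher and 18.3% lower. Ndufaf4, a Q module factor on chr4:24898079-24905001 (GRCm39), measured 37.3 and 34.1 TPM in Control against 51.6 and 56.2 TPM in CypD OE (0.58, SE 0.061, adjusted p = 0.000548). Ndufaf2, which acts late with the N module, measured 72.2 and 65.9 TPM in Control against 92.4 and 98.5 TPM in CypD OE (0.46, SE 0.072, adjusted p = 0.00295). Both stood above Control without overlap and kept their call in all settings tried. Ndufaf6 was at 16.6 and 15.9 TPM in Control and 18.8 and 20.6 TPM in CypD OE (0.26, SE 0.10, adjusted p = 0.0917). Ndufaf7 (37.7 and 36.9 TPM, 42.7 and 38.2 TPM) and Ndufaf8 (16.8 and 19.9 TPM, 19.1 and 19.3 TPM) were not called. Ndufaf1 (28.5 and 32.4 TPM, 34.6 and 29.2 TPM), Ndufaf3 (7.67 and 11.4 TPM, 5.53 and 7.73 TPM) and Ndufaf5 (15.6 and 15.2 TPM, 14.6 and 15.3 TPM) overlapped between the groups.

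**Figure D3:**
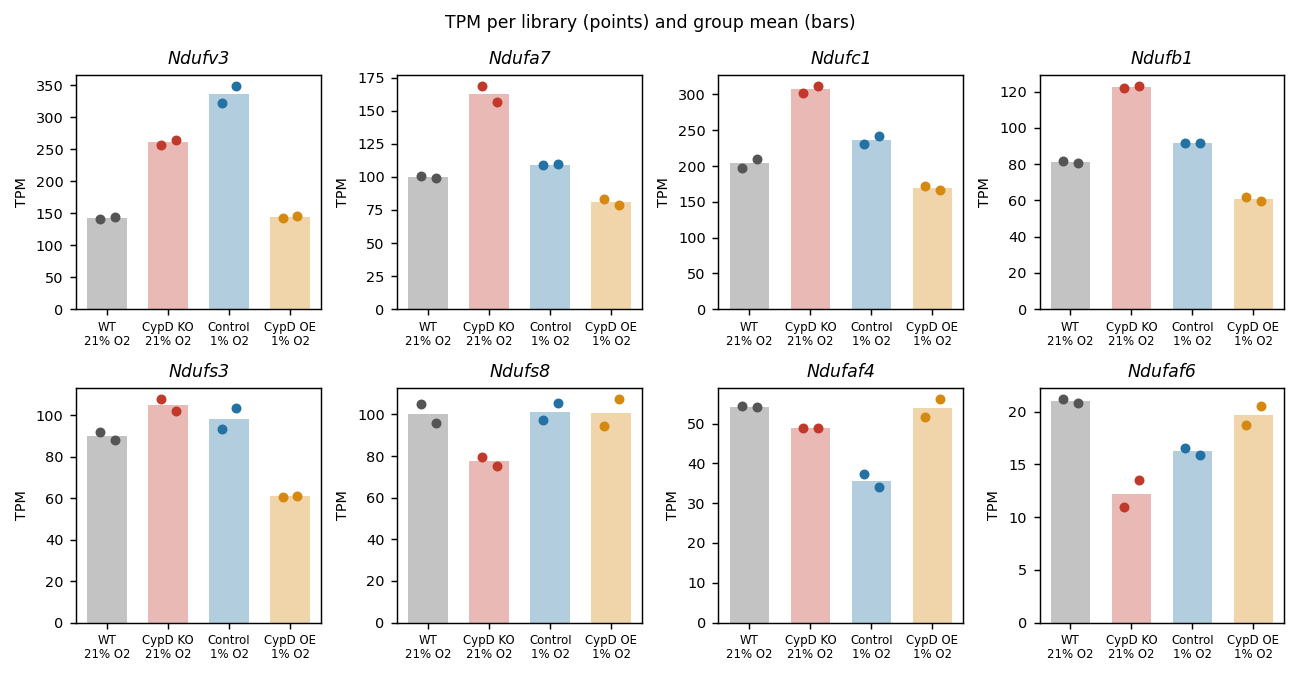
TPM of 8 members named in the text, with a point for each library and a bar for the group mean, on an axis starting at 0 in each panel. Ndufv3 lies near 143 TPM in WT and CypD OE and above 250 TPM in CypD KO and Control, and Ndufaf4 is lowest in the Control libraries.

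Control cells at 1% O2 were also set beside WT cells at 21% O2. Oxygen, the vector with its G418 selection and the line cannot be told apart in this comparison. It shares its WT libraries with the first comparison and its Control libraries with the second. Control had higher levels of 13 members (27.7%) and lower levels of 4 (8.51%), beside 12.1% higher and 12.1% lower of all genes tested. All 13 were accessory subunits, 6 of them in the distal and 5 in the proximal membrane arm, and 3 of the 4 lower members were assembly factors. The median over the members was 0.12, against 0.012 for all genes, and it was 0.070 without WT replicate 2 and 0.076 without Control replicate 2. Both Control libraries were above both WT libraries in 24 of the 47 members and below them in 12, beside 32.2% and 29.8% of all genes tested.

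Ndufv3 was higher by 1.23 on the log2 scale (SE 0.045, adjusted p = 1.46e-05), from 141 and 145 TPM in WT to 322 and 349 TPM in Control. Ndufa13 was at 56.3 and 54.2 TPM in Control, above both WT libraries (0.46, SE 0.072, adjusted p = 0.00546), and Ndufa1 at 132 and 118 TPM (0.45, SE 0.094, adjusted p = 0.0152). Ndufb7 was at 88.1 and 85.7 TPM in WT and 120 and 118 TPM in Control (0.45, SE 0.038, adjusted p = 0.000475), and Ndufb2 at 62.6 and 67.7 against 89.9 and 85.3 TPM (0.42, SE 0.057, adjusted p = 0.00294). None of these 5 overlapped between the groups, and Ndufa1 lost its call without Control replicate 1 (adjusted p = 0.0798) and without WT replicate 2 (adjusted p = 0.0525). Ndufaf4 fell from 54.4 and 54.2 TPM to 37.3 and 34.1 TPM (-0.59, SE 0.061, adjusted p = 0.00104), and this call held in all settings tried. Ndufaf6 (-0.35, SE 0.10, adjusted p = 0.0496), Ndufaf7 (-0.25, SE 0.071, adjusted p = 0.0434) and Ndufs1 (-0.15, SE 0.037, adjusted p = 0.0262) were lower by less. Each of these last 3 lost its call without Control replicate 1, WT replicate 1 or WT replicate 2 (adjusted p from 0.0891 to 0.159), which left 1 lower member each time.

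Set side by side, 7 members were called higher in CypD KO than WT, lower in CypD OE than Control and higher in Control than WT. They were Ndufa6, Ndufa11, Ndufb1, Ndufb4, Ndufc1, Ndufs5 and Ndufv3, and 4.66% of all genes tested had this pattern. The first and second of these comparisons each share libraries with the last. Ndufab1 was lower in both genotype comparisons and Ndufa5 higher in both, and 12 of the 47 tested were called in none of the 3, as were 35.1% of all genes. Ndufab1 lost its call in 5 of 12 alternatives in each genotype comparison. Over the 4 groups, Ndufv3 was highest in Control, then CypD KO (-0.36 against Control, adjusted p = 0.000811), and did not differ beyond its spread between CypD OE and WT (0.013, adjusted p = 0.862). Ndufs3 was lower in CypD OE than in WT (-0.56, adjusted p = 0.000939), while Ndufaf4 in CypD OE did not differ from WT beyond its spread (-0.012, adjusted p = 0.911).

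Levels were also summed over the subunits and over the assembly factors in each library. The 41 subunit rows added up to 5547 and 5409 TPM in WT, 6144 and 6147 TPM in CypD KO, 5990 and 6072 TPM in Control and 5268 and 5191 TPM in CypD OE. Both CypD KO and both Control libraries were thus above WT, and both CypD OE libraries were below all others. With an equal nuclear protein-coding total, CypD OE was at 5430 and 5396 and WT at 5518 and 5399, and 1 CypD OE library then lay between the WT libraries. The 8 Ndufaf factors added up to 268 and 272 TPM in WT, 262 and 243 TPM in CypD KO, 232 and 232 TPM in Control and 279 and 285 TPM in CypD OE. Here CypD OE was highest and Control lowest. After median-of-ratios rescaling, the factor sums were 247 and 231 in CypD KO and 236 and 232 in Control, which overlap. The subunit sums were then 5781 and 5849 in CypD KO and 5694 and 5527 in WT. Whether subunits and factors differed was not tested, since a test over the members was not made.

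**Figure D4:**
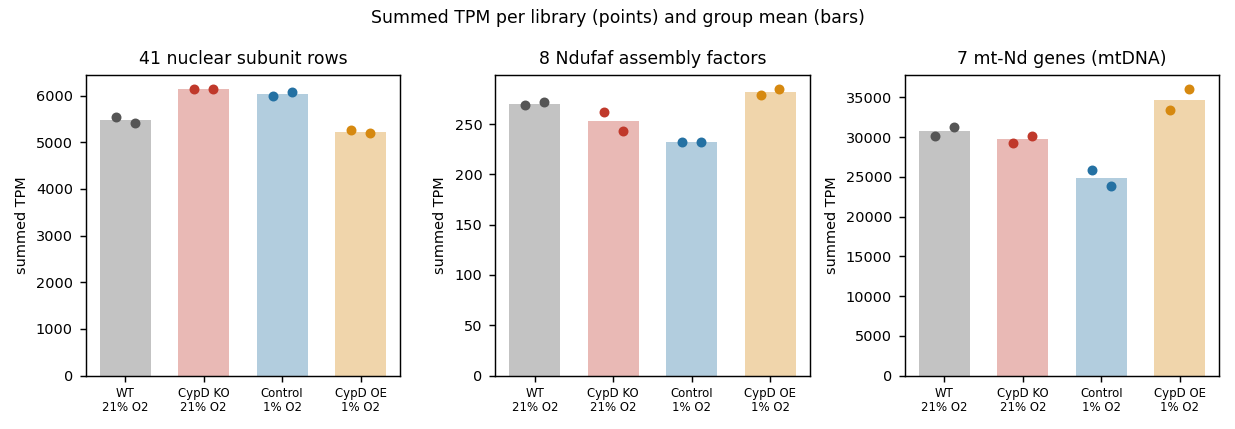
Summed TPM of the nuclear subunit rows, the Ndufaf factors and the mitochondrially encoded mt-Nd genes with a point for each of the 8 libraries and a bar for the group mean, on axes starting at 0. The subunit sum is lowest in CypD OE (5268 and 5191 TPM), where the mt-Nd sum is highest (33381 and 36076 TPM).

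The mitochondrial genes mt-Nd1 to mt-Nd6 and mt-Nd4l encode the core subunits of the membrane arm. Their sum was 30204 and 31331 TPM in WT, 29302 and 30123 TPM in CypD KO, 25832 and 23896 TPM in Control and 33381 and 36076 TPM in CypD OE. In CypD KO 1 of the 7 was called, mt-Nd1, which fell by 0.20 on the log2 scale (SE 0.045, adjusted p = 0.00985). Thus 14.3% were lower and none higher, beside 18.4% and 30.1% of all genes tested. In CypD OE 6 of 7 were higher than in Control and none lower, with a median of 0.37. Of all genes tested, 19.0% were higher and 18.3% lower. There mt-Nd1 rose from 5815 and 5430 TPM to 9234 and 9886 TPM (0.77, SE 0.045, adjusted p = 4.55e-05), and mt-Nd2 from 3872 and 3538 TPM to 5362 and 5788 TPM (0.59, SE 0.056, adjusted p = 0.000366). Between Control and WT 5 of 7 were lower, beside 12.1% of all genes tested, with a median of -0.25. Thus in CypD OE the called mitochondrial and most called nuclear subunits changed in opposite directions. Values of mitochondrial genes are uncertain where near-identical nuclear copies exist, and mt-Nd6 lies on the strand opposite to its neighbours.

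Of 14 further assembly factors listed under other symbols, 13 were found. In CypD KO, 3 were higher (23.1%) and 2 lower (15.4%), beside 30.1% and 18.4% of all genes tested. Acad9, a partner of the factors that build the membrane arm, was higher by 0.45 (SE 0.14, adjusted p = 0.0337), Ecsit of the same complex was lower by 0.38 (-0.38, SE 0.11, adjusted p = 0.0253), and Dmac1, a distal membrane arm factor, was higher by 0.37 (SE 0.070, adjusted p = 0.00464). In CypD OE against Control, 2 were higher and 2 lower (15.4% each), beside 19.0% and 18.3% of all genes tested. They included Timmdc1, a membrane arm factor, at -0.41 (SE 0.091, adjusted p = 0.0126), Tmem70 at -0.28 (SE 0.065, adjusted p = 0.0147) and Dmac1 at 0.22 (SE 0.070, adjusted p = 0.0438). In Control against WT, 1 was higher (7.69%) and 2 lower (15.4%), beside 12.1% and 12.1% of all genes tested. These were Tmem70 at -0.30 (SE 0.065, adjusted p = 0.0186), Dmac1 at 0.25 (SE 0.070, adjusted p = 0.0423) and Aifm1 at -0.19 (SE 0.054, adjusted p = 0.0422). In each comparison most of the 13 did not pass the test, and the 2 factors named for CypD KO as partners went in opposite directions.

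Read against the promoter matches, ACGTG was present in 6 of the 18 matched members that were higher in CypD KO, in none of 4 that were lower and in 2 of 18 not called. In Control against WT it was present in 3 of 13 higher members, none of 2 lower and 5 of 25 not called, and in CypD OE against Control in 4 of 17 lower, none of 4 higher and 4 of 19 not called. GCGTG was present in 10 of 18 higher, 2 of 4 lower and 9 of 18 not called in CypD KO. In Control against WT it was present in 6 of 13 higher, 1 of 2 lower and 14 of 25 not called. In CypD OE against Control it was present in 2 of 4 higher, 8 of 17 lower and 11 of 19 not called. The NRF1-like motif was present in 6 of 18 higher, none of 4 lower and 3 of 18 not called in CypD KO. In Control against WT it was present in 4 of 13 higher, 1 of 2 lower (Ndufaf4) and 4 of 25 not called. In CypD OE against Control it was present in 2 of 4 higher, 5 of 17 lower and 2 of 19 not called. Over all genes, ACGTG was present in 21.8%, GCGTG in 35.2% and the NRF1-like motif in 5.2%. The counts by call describe where the letters occur and were not tested.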

How the data were processed

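RNA was rRNA-depleted (KAPA RNA HyperPrep with RiboErase) and sequenced. Per the labels, the submitters' processing notes name Cutadapt 3.4, STAR 2.7.8a, RSEM 1.3.1, DESeq2 1.26.0 and the GRCm39 build. The deposited values are TPM with 2 decimals, which the authors estimated per gene, so the read depth is unknown, no counting interval can be given, and DESeq2 results were not used. All 8 libraries were used, and 0 columns were left out.

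The members and the gene lists were chosen with earlier results of these data known. Genes with at least 1 TPM in 2 libraries (13526) were tested by limma 3.58.1 (R 4.3.3) on the log2(TPM + 1) scale, as group means over 8 libraries with eBayes trend, two-sided, with Benjamini-Hochberg adjustment over all genes and a threshold of 0.05. The text names the core subunits, the Ndufaf factors and, per comparison, the 5 largest called rises and falls without overlap. On simulated data for CypD KO against WT with 200 of 13526 genes changed, limma recovered 43% of log2 changes of 0.5 and 69% of log2 changes of 1. Far fewer genes changed there than were called in the data (30.1% higher and 18.4% lower), and the simulation was not restricted to the members. The recovered shares thus do not give the power for the members. Coordinates are GRCm39 (GENCODE) for genes and GRCm38.p6 (RefSeq) for promoters, and 9 members have no promoter entry in the table used here. Tables were prepared with Python 3.11.15. Alternatives were the pseudocount, the filter, rescaling, a fit of 4 libraries, a replicate block, eBayes without trend, and leaving out each library. The values of 1 member are not reported here, although it is included in the counts and sums.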

Additional observations from a re-analysis of the deposited data

How the results depend on the processing

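Of 12 alternatives per comparison, 14 of 19 higher and 2 of 6 lower members of CypD KO kept their call in each, as did 2 of 4 higher and 15 of 19 lower members of CypD OE, and 6 of 13 higher and 1 of 4 lower members of Control against WT. No called member changed sign. For CypD KO against WT, the lower count was 14 under median-of-ratios rescaling, and leaving out 1 library gave 2 to 5 lower (2 without WT replicate 1) and 14 to 18 higher. Ndufs8 had a log2 difference of -0.30 to -0.48 over all alternatives, with an adjusted p of up to 0.0526. For CypD OE against Control, the higher count was 7 with an equal total of nuclear protein-coding genes (added after seeing the data), and leaving out 1 library gave 2 to 5 (2 without CypD OE replicate 1). For Control against WT, the lower count was 2 with no filter and 1 without the trend, 1 to 3 with 1 library left out (1 without Control replicate 1, WT replicate 1 or WT replicate 2), and the higher count was 8 when only its 4 libraries were fitted and 9 to 12 with 1 left out. The cause was not tested.

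Signs reversed only for members that were not called. Outside the core subunits and Ndufaf factors, 3 reversed under some alternative in CypD KO (Ndufa9, Ndufb3 and Ndufb7), 7 in CypD OE (Ndufa1, Ndufa2, Ndufa13, Ndufb2, Ndufb4c, Ndufc2 and Ndufs6b) and 2 in Control (Ndufc2 and Ndufs6b). Among the core subunits and Ndufaf factors, reversals under median-of-ratios rescaling were, in CypD KO, Ndufaf1 (-0.083) and Ndufv1 (-0.033), and, in Control, Ndufs8 (-0.0058). In the same classes, with the equal nuclear total they were, in CypD OE, Ndufs8 (0.073), Ndufaf5 (0.038), Ndufv1 (0.046), Ndufv2 (0.021) and Ndufs7 (0.074), and, in Control, Ndufs8 (-0.012). With 1 library left out, they were, again in these classes, in CypD KO, Ndufaf1 (-0.0027 to 0.058), Ndufaf5 (-0.031 to 0.44) and Ndufaf2 (-0.092 to 0.080), in CypD OE, Ndufs8 (-0.10 to 0.084), Ndufaf1 (-0.058 to 0.18), Ndufs7 (-0.042 to 0.028), Ndufv1 (-0.081 to 0.0097), Ndufaf8 (-0.051 to 0.18) and Ndufv2 (-0.13 to 0.0051), and, in Control, Ndufaf1 (-0.14 to 0.042), Ndufv1 (-0.071 to 0.041) and Ndufs8 (-0.049 to 0.079).

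Replicate numbers in the labels give no shared culture, and samples of the same number were correlated by 0.108, -0.00175 and -0.0186 in their deviations for KO and WT, OE and Control, and Control and WT. With the replicate block, calls were 18 higher and 9 lower in CypD KO, 4 higher and 19 lower in CypD OE, and 13 higher and 3 lower in Control.

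No depth is stored in TPM, so depth sets no limit that can be given here. Only 2 libraries per group limit the precision.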

Other observations

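Rows next to the members carried values that belong to no comparison above. Ndufa4, now counted as a subunit of cytochrome c oxidase, was at 651 and 656 TPM in WT, 818 and 813 TPM in CypD KO, 654 and 729 TPM in Control and 809 and 760 TPM in CypD OE. It was higher in CypD KO than WT (0.32, SE 0.053, adjusted p = 0.00268) and higher in CypD OE than Control (0.18, SE 0.053, adjusted p = 0.0341) by limma. Ndufa4l2, a gene known for its induction in hypoxia, stayed between 0 and 1.52 TPM and was listed at 0 in both CypD OE libraries. Of the hyphenated pseudogene rows, Ndufa12-ps was at 3.09 to 7.79 TPM, Ndufs5-ps at 0 to 3.09 TPM and Ndufab1-ps at 0 to 1.13 TPM.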
